A study of Glycine max with 2 samples.

Results

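PR1-1, PR1-7, NDR1b and HS1pro1 are 4 defence genes of soybean (Glycine max), and their transcript levels were compared between seedlings given salt and seedlings given water. Their probe sets, the groups of short oligonucleotides that report 1 transcript on an Affymetrix Soybean Genome Array, were taken by gene symbol from the platform's annotation. The symbols gave 4 of the 6031 genes with a probe set of their own and 7 of 37593 soybean probe sets, 2 each for PR1-1, PR1-7 and HS1pro1 and 1 for NDR1b. The genes were picked because their ratios on these arrays were known to be large, so the values below describe the 2 arrays and carry no test.

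Both groups were 14-day-old seedlings of the cultivar Williams 82, grown in vermiculite with 16 h of light a day at 25 °C. The salinity group received 150 mM NaCl and the mock group water alone. RNA from 1, 3, 6, 12 and 24 h of treatment was mixed separately for the salt-treated and the mock-treated seedlings, 0.5 µg from each time, and each pool was hybridised to 1 array. The text on the design also lists samples taken at the start of treatment, so it is not settled whether the pools hold them. The sources used here give neither the number of plants nor the organs taken. With 1 array per group there are no replicates, so no value has an error, and less RNA per cell cannot be told apart from fewer cells of a type.

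PR1 proteins are small secreted proteins of the CAP superfamily. In Arabidopsis and tobacco, PR1 transcripts accumulate after pathogen attack and after salicylic acid treatment, and they are widely used as a marker of that response. NDR1 of Arabidopsis is a plasma membrane protein needed for resistance mediated by many coiled-coil immune receptors, and it binds RIN4, a membrane protein that those receptors watch. HS1pro1 is named after a sugar beet gene described for resistance to the beet cyst nematode, and its Arabidopsis relatives interact with the SnRK1 energy-sensing kinase.

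The 4 genes formed 2 pairs. Both PR1 genes, which encode secreted defence proteins, were higher on the salinity array by every probe set. NDR1b and HS1pro1, which are named after resistance regulators, were lower there by every probe set. At a fixed rule of at least 2-fold, 4 of the 7 probe sets were higher and 3 were lower. Over all 33784 soybean probe sets measured, meaning above background on at least 1 array, 4.33% were higher by 2-fold or more and 5.36% lower by 2-fold or more. Since the genes were chosen on this comparison, nothing is read from that contrast of shares.

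PR1-7 was the gene with the largest difference. Its brightest probe set, GmaAffx.88845.1.S1_at, read 13.04 under salt and 10.74 in the mock pool on the scale of log2 signal. The salinity signal was thus 4.92-fold the mock signal, a log2 ratio of 2.30. Only 225 of the measured probe sets had a higher ratio, or 0.666%. The second probe set, GmaAffx.88845.1.A1_at, was far dimmer, with log2 signals of 8.15 (salinity) and 6.28 (mock), and gave a log2 ratio of 1.87, 3.66-fold higher. Both sets were higher in the salt-treated pool, with ratios 0.43 apart on the log2 scale. The 2 sets of PR1-7 belong to the same sequence cluster of the array, as do the 2 sets of PR1-1. They are therefore less separate measurements than sets from different clusters. In each pair the brighter set is named S1 and the dimmer set A1. Whether both sets of a pair report the same strand and transcript was not tested, because the oligonucleotide sequences were not used.

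PR1-1, also listed as PR1a, reached log2 signals of 13.89 (salinity) and 12.25 (mock) by its brightest probe set, GmaAffx.93635.1.S1_s_at. That is a log2 ratio of 1.64, or 3.11-fold higher. The suffix of this set marks oligonucleotides that can match transcripts of more than 1 gene. The dimmer set without that mark, GmaAffx.93635.1.A1_at, had log2 signals of 8.69 (salinity) and 6.53 (mock), a log2 ratio of 2.16 or 4.48-fold higher. PR1-1 was higher on the salinity array by both sets, and the size of the difference depended on the set. By the brightest sets the PR1-7 ratio was above that of PR1-1, and by the dimmer sets the order was the opposite.

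**Figure D1:**
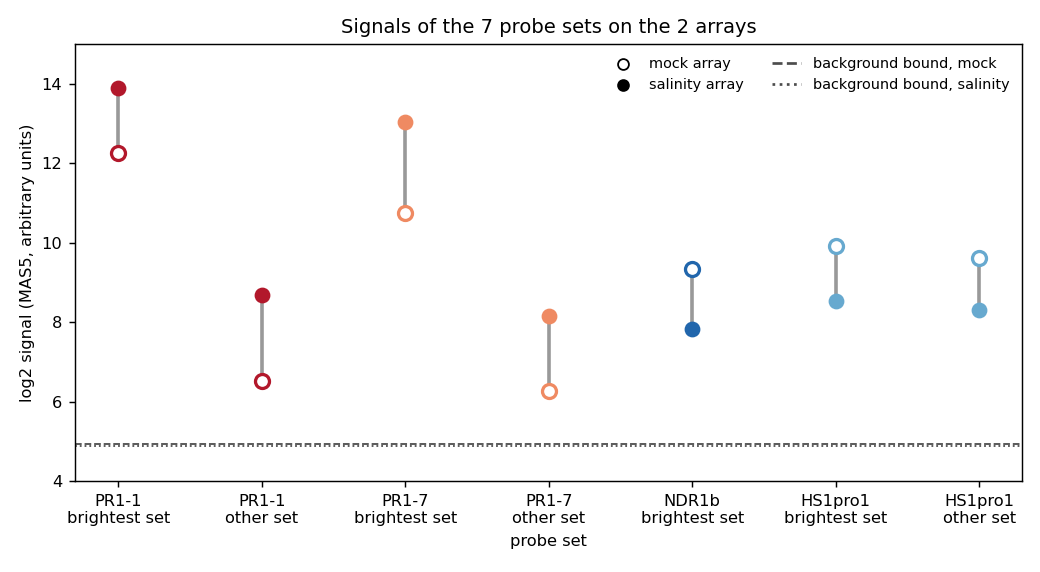
Log2 signal (y axis, MAS5, arbitrary units) of the 7 probe sets (x axis) on the salinity array (filled points) and the mock array (open points), joined by a line for each set, with the background bounds of both arrays as broken lines. All 4 PR1 sets have the filled point on top and all 3 sets of NDR1b and HS1pro1 have the open point on top, and every point lies above the bounds of 4.88 and 4.94.

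NDR1b, also listed as Gm-NDR1-1, had 1 probe set, GmaAffx.74588.1.S1_at. It read log2 signals of 7.83 (salinity) and 9.35 (mock), a log2 ratio of -1.51 or 2.86-fold lower. Of the measured probe sets, 1.70% had a lower ratio. NDR1b is the gene of the 4 with no second probe set on these arrays.

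HS1pro1 was lower by 2 probe sets from different sequence clusters of the array. Gma.12224.1.S1_at had log2 signals of 8.53 (salinity) and 9.92 (mock), a log2 ratio of -1.39 or 2.63-fold lower. GmaAffx.76062.1.S1_at had 8.30 (salinity) and 9.61 (mock), a log2 ratio of -1.31 or 2.48-fold lower. The sets differed by 0.084 on the log2 scale, the closest match among the 3 genes with 2 sets.

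The nearest thing to a repeat measurement on these arrays is a second probe set for the same gene. For PR1-1 and PR1-7, whether the second set reports the same strand and transcript was not tested. Across 1618 genes with 2 or more probe sets above background on both arrays, the log2 ratios of the 2 brightest sets differed with an SD of 0.418. The difference was 1.26 times that SD for PR1-1, 1.03 times for PR1-7 and 0.200 times for HS1pro1. This spread covers probe effects and holds no variation between plants, pools or arrays. All 7 sets were above background on both arrays. As the background bound, the 95th percentile of signal over the sets for 2 other organisms on the array was taken, 4.88 (salinity) and 4.94 (mock) on the log2 scale. The dimmer PR1-1 and PR1-7 sets came closest to it, on the mock array, at 1.58 and 1.34 above the bound on the log2 scale.

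**Figure D2:**
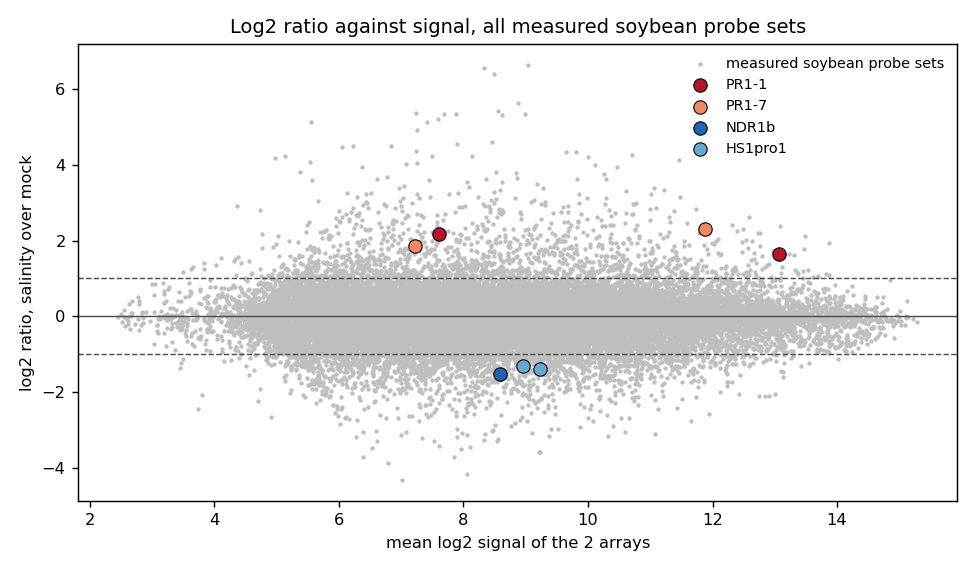
Log2 ratio of salinity over mock (y axis) against the mean log2 signal of the 2 arrays (x axis) for the 33784 measured soybean probe sets (grey) and the 7 sets of PR1-1, PR1-7, NDR1b and HS1pro1 (coloured), with broken lines at 2-fold. The 4 PR1 sets lie between 1.64 and 2.30 and the 3 other sets between -1.51 and -1.31, each beyond the 2-fold lines, while many grey points lie farther out.

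What the PR1 probe sets can separate is limited by the gene family. RefSeq's table for the Glycine_max_v4.0 assembly holds 9 genes named PR1 or, in 1 case, PRI1, and they lie in 2 neighbourhoods of 5 and 4 genes. PR1-1 is directly followed by PR1-2, and PR1-4, PR1-3 and PR1-5 lie close by. PR1-6, PR1-7, PR1-8 and PRI1-9 follow each other with no other gene between them. Of the 9 genes, 2 have a probe set assigned as its single gene, PR1-1 and PR1-7. Signal from the 7 relatives in the PR1-1 and PR1-7 sets was not tested, because the oligonucleotide sequences were not used here. The table also lists a second NDR1 gene, NDR1A, which has probe sets of its own.

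The other pathogenesis-related genes found by symbol were also higher on the salinity array. This list held 4 genes beside PR1, all of them measured. They belong to the families named next, and other pathogenesis-related families had no gene in the list. OLPa and OLPb encode osmotin-like proteins, relatives of a tobacco protein first found in salt-adapted cells, and PR-10 (also named SAM22) and PR10 encode intracellular proteins of the Bet v 1 fold. By the brightest probe set, 3 of the 4 were at least 2-fold higher and none was lower, with a median log2 ratio of 1.09. Across all 5892 measured genes the median was -0.0033, with 5.02% higher and 5.67% lower by 2-fold or more. As the list was chosen with earlier results of these data known, nothing is read from that contrast. OLPa, at log2 signals of 13.55 (salinity) and 12.20 (mock), was 2.56-fold higher. PR-10 was 2.17-fold higher (log2 signals of 13.94 and 12.82) and PR10 2.10-fold higher (9.57 and 8.50). OLPb lay below the 2-fold rule by its brightest set, 1.81-fold higher at log2 signals of 13.24 and 12.38, while its other sets reached a log2 ratio of 1.70. All 10 probe sets of these 4 genes lay above 0, from 0.85 to 2.06, and 8 were at least 2-fold higher. The brightest sets of OLPa and OLPb carry a suffix taken as a mark of cross-hybridisation. So do another set of OLPa and the dimmer set of PR-10. Signal shared between genes was not tested, so the 10 sets are not 10 separate readings. None of the 4 reached the log2 ratio of PR1-1 or PR1-7 by the brightest set.

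**Figure D3:**
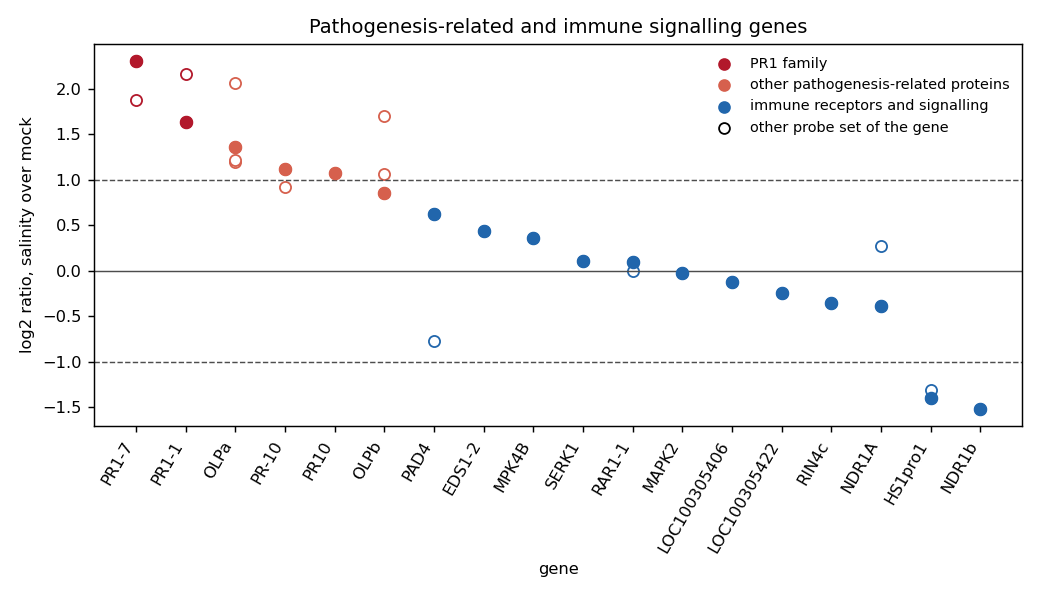
Log2 ratio of salinity over mock (y axis) for each gene (x axis) of the PR1 family, of the other pathogenesis-related proteins and of the immune receptor and signalling list. Filled points are the brightest probe set of a gene, open points its other sets, and broken lines mark 2-fold. The 6 pathogenesis-related genes lie above 0 by every set, and of the 12 signalling genes NDR1b and HS1pro1 alone lie past the lower 2-fold line.

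Among genes of immune receptors and signalling, the list to which NDR1b and HS1pro1 belong, 12 were measured. NDR1b and HS1pro1, chosen for their ratios, were the 2 past 2-fold. The other 10 all differed by less than 2-fold, 5 above and 5 below 0, with a median log2 ratio of 0.034. With 5.02% of all measured genes higher and 5.67% lower by 2-fold or more, a count of 0 in 10 genes is near that background. NDR1A, the second NDR1 gene, had a log2 ratio of -0.39 by its brightest set, at log2 signals of 7.87 (salinity) and 8.26 (mock), and of 0.27 by its other set. Its sets thus pointed both ways, in contrast to the -1.51 of the NDR1b set. RIN4c, of the RIN4 family whose Arabidopsis member binds NDR1, was at -0.35. The PBS1 kinase genes LOC100305422 (PBS1-1) and LOC100305406 (PBS1-2), whose Arabidopsis relative is guarded by an immune receptor, were at -0.25 and -0.13.

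The remaining signalling genes lay near or above 0. EDS1-2, a lipase-like regulator that acts upstream of salicylic acid in Arabidopsis, was at a log2 ratio of 0.43. Its partner PAD4 was at 0.63 by the brightest set and at -0.77 by the other, so no direction can be given for it. The mitogen-activated protein kinase genes MPK4B and MAPK2 were at 0.36 and -0.03. RAR1-1, a co-chaperone of immune receptors, and SERK1, a receptor-like kinase, were both at 0.10. Only 1 gene of salicylic acid supply was found by symbol, PAL2.1, a phenylalanine ammonia-lyase gene. Its log2 ratio was 0.37, and its 3 sets ranged from 0.13 to 0.37.

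Genes with levels close to each of the 4 on both arrays were found among 912 genes that have a proper symbol in place of a locus number and lay above background on both arrays. Likeness was the distance between pairs of log2 signals over the 2 arrays, so it describes 2 values per gene and compares different probe sets. Nearest to PR1-1 were MIPS4 (distance 0.064) and PTS1 (0.074), with log2 ratios of 1.73 and 1.55. Nearest to PR1-7 were R1 (0.469) and CYP82A2 (0.576), at log2 ratios of 1.64 and 1.65, both below that of PR1-7. Nearest to NDR1b were UGT78K1 (0.153) and MYB172 (0.251), at -1.31 and -1.62. Nearest to HS1pro1 were WRKY46 (0.057) and CYP93A3 (0.137), at -1.47 and -1.53. The ratio is the difference of the same 2 log2 signals, so genes chosen this way have similar ratios by construction. Signals of different probe sets are not on a common scale, so the distances served only to choose the genes.

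Markers of green tissue, nodules and seeds and the ribosomal RNA probe sets were read beside these genes. All 7 green tissue genes were bright enough to be measured, 6 lay below 0 and none differed 2-fold by its brightest set, with a median log2 ratio of -0.32 and a range from -0.62 to 0.20. Without probe sets marked for cross-hybridisation, 5 were measured and 3 lay below 0, with CAB3 at 0.26 and PSAD at 0.17. Of 18 genes with nodulin names, 11 were not above the bound on either array by their brightest set, and the 7 measured ones had a median of -0.0043, with N-36A 2.34-fold higher and ENOD55-2 3.40-fold lower. Of 13 seed storage genes, 9 were not above the bound, and the 4 measured ones lay between 0.11 and 0.64, with 3 of them under the bound on the mock array, so that their ratios are lower limits. Soybean ribosomal RNA is reported by 48 probe sets outside the comparison, of which 42 were above the bound on at least 1 array. Of these, 38 were higher on the salinity array, with a median log2 ratio of 0.85. The part of these differences in the ratios of PR1-1, PR1-7, NDR1b and HS1pro1 was not tested.

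The array also carries probe sets for Phytophthora sojae, a water mould that infects soybean roots, and for the soybean cyst nematode. A log2 signal over 8 was reached by 30 of 15820 Phytophthora sojae sets under salt and by 27 in the mock pool. For the nematode these were 7 and 8 of 7530 sets. Of the 1360 Phytophthora sojae sets above the bound, which is itself set from these probe sets, 18 were higher and 23 lower by 2-fold or more. Of the 541 such sets for the nematode, 10 were higher and 12 lower, where the shares over soybean probe sets were 4.33% and 5.36%. The median log2 ratios were -0.064 and -0.061, beside a difference of -0.062 between the bounds of the 2 arrays.

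The 4 genes kept their directions under 9 other ways of processing the values. Of these, 3, the other bounds and the filter on both arrays, left all 4 values as they were. Median centring subtracted a median log2 ratio of -0.0029, so it could change little. NDR1b, with its single set, took a slightly different value under 4 of the 9, the scalings and the pseudocount. The log2 ratio of PR1-7 ranged from 2.09 to 2.31, that of PR1-1 from 1.63 to 2.16, that of NDR1b from -1.51 to -1.45 and that of HS1pro1 from -1.40 to -1.35. None came under 2-fold.

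**Figure D4:**
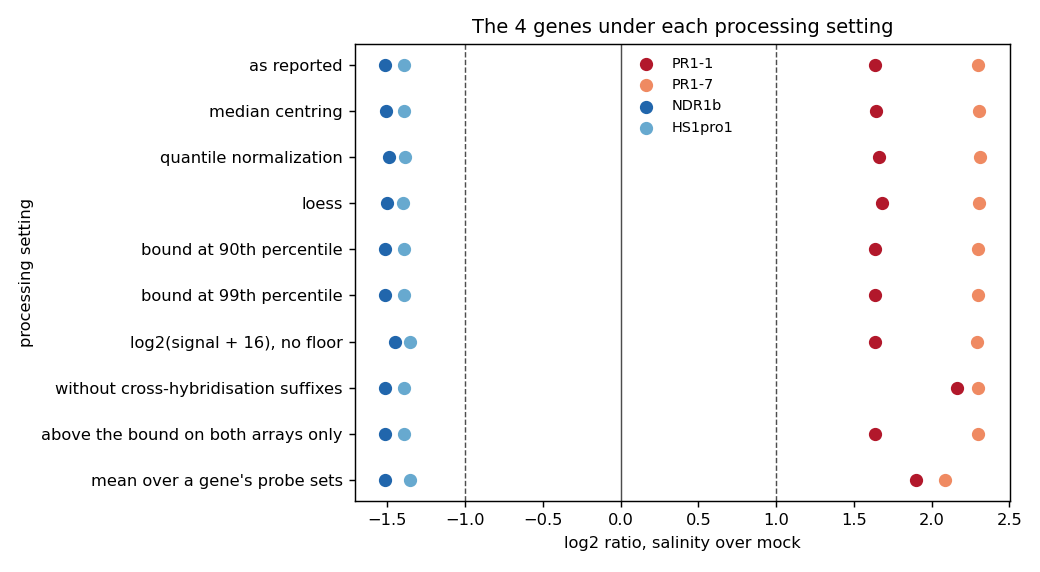
Log2 ratio of salinity over mock (x axis) of PR1-1, PR1-7, NDR1b and HS1pro1 under the reported setting and each of 9 alternatives (y axis), with broken lines at 2-fold. Each gene keeps its side of the 2-fold lines throughout. The PR1-1 point moves most, from 1.64 to 2.16 when probe sets with suffixes for cross-hybridisation are left out. Its dimmer A1 set then gives the value.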

How the data were processed

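Total RNA was extracted with Trizol, and 10 µg is given as the amount labelled with biotin, per the labels' protocols. The 0.5 µg from each time adds up to less than that amount, and the difference was not resolved. The deposited values are log2 signals, which the authors computed with MAS5 according to the submitters' processing notes. Neither its version nor any later step is given in the sources used here. The 2% trimmed means of the unlogged signal were 498.8 (salinity) and 498.5 (mock), so the arrays had been scaled to a common level. The groups came from the labels, with 1 array each. The number of arrays limits the precision.

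The ratio is log2(salinity / mock) with no further normalization. Signals below the 95th percentile of the Phytophthora sojae and nematode probe sets were raised to it. A probe set above it on 1 array or both counts as measured. A gene takes the value of its brightest probe set, by mean log2 signal. Names came from the platform's annotation, which gives a single gene for 8677 soybean probe sets and several for 370. They were updated through the gene identifier from RefSeq's Glycine_max_v4.0 table, where all 4 genes were found. No build is named for the probe sets, so no coordinates are given. No test was possible with 1 array in each group, so a 2-fold rule was used.

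The 4 genes and the 7 lists of genes were chosen with earlier results of these data known. The genes named are the 4, list genes that differed at least 2-fold or else the highest and lowest of a list, and the 2 nearest genes by log2 signals. Other list members were chosen for naming after their values were seen. The alternatives tried were median centring, quantile normalization, loess (span 0.3), a background bound at the 90th or the 99th percentile, no floor but log2(signal + 16), probe sets without cross-hybridisation suffixes, sets above the bound on both arrays, and averaging the probe sets of a gene. The code (Python 3.11.15, pandas 2.3.3, statsmodels 0.14.6) was tested on simulated data.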

Additional observations from a re-analysis of the deposited data

Results flagged for a closer look

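The probe sets for soybean ribosomal RNA, which enter no comparison, were brighter on the salinity array than on the mock array, with a median log2 ratio of 0.85 over the 42 sets above the bound. Of these, 18 were at least 2-fold higher and none was at least 2-fold lower. Their part in the ratios of PR1-1, PR1-7, NDR1b and HS1pro1 was not tested.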

How the results depend on the processing

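Each of the 7 probe sets kept its direction and stayed past 2-fold under every alternative that could give it a value, though 3 of the 9 changed none of the 4 genes. Without probe sets marked for cross-hybridisation, PR1-1 took its value from its dimmer A1 set and moved to a log2 ratio of 2.16. Whether that set reports the same transcript was not tested. In this setting the count of nodule genes at least 2-fold higher became 0, since the N-36A set is marked. The same setting put OLPb at 1.70, past 2-fold. With the mean over probe sets, OLPb was at 1.21, NDR1A at -0.06 and PAD4 at -0.07. Of the other genes and lists, those that moved by more than the spread between probe sets of 1 gene (0.295 on the log2 scale) were GY2, ENOD55-2, CAB3 and PSAD. CAB3 and PSAD changed sign without the marked sets, from -0.24 to 0.26 and from -0.32 to 0.17. Sets ending in _s_at, _x_at or _a_at were taken as marked. The brightest PSAD set ends in _a_at, and whether that ending marks signal from more than 1 gene was not tested. No paired analysis was possible because each group has 1 array. Depth has no meaning for arrays, and the values lowest over background were the mock signals of the dimmer PR1 sets, which lay 1.34 and 1.58 above the bound on the log2 scale.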

Other observations

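Genes within 4 places of the 4 genes in the RefSeq table, and with a probe set, gave log2 ratios between -0.17 and 0.85. The highest was LOC100527778, which lies 2 places from PR1-7, at log2 signals of 10.13 (salinity) and 9.28 (mock). LOC100800870, 3 places from PR1-7, was at -0.17. LOC547816, next to HS1pro1, was at -0.14, and PIP1-10, an aquaporin gene 3 places from it, was at 0.14. LOC100811661, 4 places from NDR1b, was at 0.29. None of these 5 differed 2-fold, which is near the background of 5.02% of genes higher and 5.67% lower.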
